A study of Mus musculus with 4 samples.

Results

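Dcpp1, Dcpp2, Dcpp3, Sbp and Sbpl are 5 small secretory genes that lie next to each other on mouse chromosome 17. They were taken by symbol from a table of 23242 genes, with earlier results of the genotype comparison in these libraries known, so every difference between genotypes given for them is a description without a test. RNA was sequenced from prostate tissue (ventral and dorsal lobes) of 4 FVB animals, 1 library each. Wild-type mice 27 and 28 are labelled ERG negative. Mice 26 and 29, labelled ERG positive, were homozygous for TMPRSS2:ERG, a bacterial artificial chromosome carrying the TMPRSS2 locus and a human ERG exon 4-11 cassette, in which the loxP-flanked GFP was removed with Cre protein. All homozygotes descend from 1 sub-line, and no source used here gives ages or the insertion site. The lobes of an animal were not labelled separately, so a different share of each lobe, fewer secretory cells and less RNA per cell cannot be told apart.

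Dcpp stands for demilune and parotid protein, after the salivary gland cells that secrete these proteins. Sbp, spermine binding protein, is an androgen-dependent secretion of the ventral prostate that binds the polyamine spermine, and Sbpl is its close relative. Both families carry a fold related to that of jacalin, a plant lectin, which Zg16 of the zymogen granule shares.

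The 2 families followed different patterns across the animals. Dcpp1 was near 0.1 FPKM (fragments per kilobase of transcript, relative to library depth) in wild type and above 30 FPKM in homozygotes, and Dcpp2 was listed above 0 only in homozygotes. Sbp and Sbpl hold a code in place of a level in both wild types and, in homozygotes, had levels that differed about 30-fold between mouse 26 and mouse 29. No tested neighbour within 500 kb differed as much between genotypes as Dcpp1.

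By the table's coordinates (mm10, starts counted from 1) Dcpp1 lies at chr17:23880876-23882853, Dcpp2 at chr17:23898722-23900787, Dcpp3 at chr17:23917458-23919441, Sbp at chr17:23941996-23945607 and Sbpl at chr17:23953085-23955273. Dcpp1 (Entrez 13184), Dcpp2 (630537), Dcpp3 (620253) and Sbp (20234) are on the plus strand and Sbpl (638345) on the minus strand, so Sbp and Sbpl face each other. GENCODE M21, on the same build, lists all 5 as protein coding and gives Dcpp2 a transcript that starts inside Dcpp1, at 23880880, and ends in Dcpp2, at 23900764.

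The sequences before the starts are shown because Dcpp1, Dcpp2 and Dcpp3 share almost the same promoter although their levels differ. Each line gives the 150 bases before the RefSeq start (GRCm38.p6), 5′ to 3′ on the gene's strand. Capitals mark TATAA, the core of a TATA box, and AGGAAG, a sequence that contains the GGAA core bound by ETS factors such as ERG, each on either strand (TTATA and CTTCCT on the opposite one).
Dcpp1, chr17:23880726-23880875, plus strand: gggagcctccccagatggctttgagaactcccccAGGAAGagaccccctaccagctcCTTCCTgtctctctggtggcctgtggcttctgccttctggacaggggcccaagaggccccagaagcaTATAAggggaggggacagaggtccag
Dcpp2, chr17:23898572-23898721, plus strand: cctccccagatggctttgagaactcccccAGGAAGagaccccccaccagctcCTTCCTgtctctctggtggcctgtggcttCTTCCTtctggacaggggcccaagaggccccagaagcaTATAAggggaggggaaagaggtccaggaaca
Dcpp3, chr17:23917308-23917457, plus strand: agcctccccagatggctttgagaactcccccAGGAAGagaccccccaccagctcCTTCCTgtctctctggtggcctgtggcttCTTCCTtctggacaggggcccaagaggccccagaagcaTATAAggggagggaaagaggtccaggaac
Sbp, chr17:23941768-23941917, plus strand: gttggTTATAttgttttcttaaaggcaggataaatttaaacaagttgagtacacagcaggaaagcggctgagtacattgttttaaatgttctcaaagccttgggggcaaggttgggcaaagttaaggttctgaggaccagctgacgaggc
Sbpl, chr17:23955274-23955423, minus strand: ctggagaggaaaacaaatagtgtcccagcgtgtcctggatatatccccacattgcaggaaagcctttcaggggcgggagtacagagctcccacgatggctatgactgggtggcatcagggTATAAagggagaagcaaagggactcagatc

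Over 250 bases before the start, Dcpp1 and Dcpp2 were 93.3% identical, Dcpp1 and Dcpp3 94.9%, and Dcpp2 and Dcpp3 96.4%. TATAA began 26, 31 and 29 bases before the start of Dcpp1, Dcpp2 and Dcpp3, and 30 bases before that of Sbpl. It occurs in 22.8% of the 32851 promoter windows of this length in the reference. The Sbp window is not matched in position, since the RefSeq start used is 78 bases before the start in the table and RefSeq gives Sbp 3 starts. Its single TATAA lies on the opposite strand, 145 bases before that start. AGGAAG occurred 2 times before Dcpp1, 3 times before Dcpp2 and 3 times before Dcpp3, and was not found before Sbp or Sbpl, against 29.5% of all windows with at least 1 match. Only the exact sequence was searched. The shorter GGAA core was not counted and is present in the printed Sbp and Sbpl stretches too, so its presence does not separate the families. The extra AGGAAG match of Dcpp2 and Dcpp3 begins 69 and 67 bases before their starts, and Dcpp1 lacks it. Whether any of these sequences bears on the levels was not tested. CCGGAA, a further ETS sequence, was in none of the 5 windows (12.03% of all windows), nor was the full palindromic androgen receptor site (0.00913%). AGAACA, 1 arm of that site, was found before Sbp only (16.1%). Each motif was searched on both strands, and the marked motifs do not overlap.

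How far reads can be told apart depends on the transcripts. Coding sequences of the Dcpp genes were 93.8% (Dcpp1 and Dcpp2), 93.2% (Dcpp1 and Dcpp3) and 95.3% (Dcpp2 and Dcpp3) identical, and those of Sbp and Sbpl 79.3% with gaps counted as differences. Of the 50-base windows of the Dcpp1 transcript, 46.5% also occur in another of the 5 genes. For Dcpp2 and Dcpp3 the share found in another of the genes was 43.0% and 46.1%, and for Sbp and Sbpl 33.9% and 39.0%. No source used here states the read length or the treatment of reads that match several places, so levels within each family are uncertain by what those reads add. The 90 coding bases below are the stretch without gaps, inside the last exon, in which the Dcpp genes differ most (GENCODE M21, mm10, capitals where at least 1 of the sequences differs, 20 positions).
Dcpp1, chr17:23882552-23882641, plus strand: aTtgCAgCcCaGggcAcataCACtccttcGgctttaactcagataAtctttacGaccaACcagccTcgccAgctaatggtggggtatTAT
Dcpp2, chr17:23900487-23900576, plus strand: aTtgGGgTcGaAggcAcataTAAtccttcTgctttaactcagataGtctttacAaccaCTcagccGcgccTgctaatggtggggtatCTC
Dcpp3, chr17:23919140-23919229, plus strand: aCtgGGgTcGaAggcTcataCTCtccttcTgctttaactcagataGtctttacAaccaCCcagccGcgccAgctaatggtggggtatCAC

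The same choice of stretch for Sbp and Sbpl gives 4 differing positions in 90 bases, shown because reads from such a stretch are hard to assign. Gaps were kept out of the stretch. Over the whole coding sequence most columns in which Sbp and Sbpl differ are gaps, which are counted as differences. Of 699 aligned columns 105 are gaps and 40 are mismatches, against 3 gaps and 32 mismatches of 513 for Dcpp1 and Dcpp3.
Sbp, chr17:23945207-23945296, plus strand: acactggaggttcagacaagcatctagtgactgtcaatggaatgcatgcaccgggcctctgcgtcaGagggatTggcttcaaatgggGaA
Sbpl, chr17:23953448-23953537, minus strand: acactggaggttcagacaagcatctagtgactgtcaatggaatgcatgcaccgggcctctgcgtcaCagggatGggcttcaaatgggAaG

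Library-wide facts bear on these values. FPKM are not counts. The step between the lowest values of genes with 1 transcript puts the depth near 4.53e+07 fragments in mice 27, 28 and 26 and near 5.20e+07 in mouse 29, an estimate whose resolution is 0.2 in log2 units, so that mouse 29 differs from the others by a single step. Scaled FPKM are FPKM divided by a factor per library, which ranged from 0.921 to 1.04. A single round value far above all others, read here as a code, stands in 7 genes, and the highest value below it is 35611 FPKM. Of the 11 luminal prostate markers, all were tested and expressed: Krt8, a luminal keratin, was at 168 to 209 FPKM and Hoxb13, a prostate homeobox factor, at 219 to 292 FPKM. Of the 11, 2 passed (18.2%, against 7.65% of all tested genes). Epcam, an epithelial adhesion molecule, rose by 0.79 and Tmprss2 fell by 0.75 on the log2 scale (limma adjusted p = 0.0328 and 0.0209). Both calls were lost without mouse 26 (0.310 and 0.228) and without mouse 29 (0.248 and 0.102). That of Epcam was also lost without mouse 28 (0.0572), and that of Tmprss2 with unscaled FPKM (0.0597). Without a filter on low values, of all called genes named from the lists below and Prss27, only Wfdc3 stayed past the threshold.

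Dcpp1, the most abundant Dcpp gene here, was at 0.117 FPKM in mouse 27, 0.108 in mouse 28, 37.5 in mouse 26 and 31.8 in mouse 29. Both homozygotes lay far above both wild types, and the animals of each genotype were close to each other. Wild types had a scaled mean of 0.116 ± 0.0155 FPKM (SD, n = 2) and homozygotes one of 33.8 ± 4.64 FPKM (SD, n = 2), a ratio of 292. On the estimated depth the wild-type level stands for about 3.26 and 3.01 fragments per library, so the ratio is imprecise. On the log2(scaled FPKM + 1) scale, which understates changes of low genes, the difference was 4.96. In order of level among all genes Dcpp1 took places 14417 (mouse 27) and 14795 (mouse 28) in wild types and places 1881 (mouse 26) and 2226 (mouse 29) in homozygotes. For Dcpp1 the authors' deposited table holds a log2 fold of 8.22.

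Dcpp2 was listed at 0 FPKM in mice 27 and 28, at 2.51 in mouse 26 and at 1.67 in mouse 29. The homozygotes did not overlap with the wild types. A listed 0 can be a failed estimate in this table, so no ratio is given. The homozygote mean was 2.04 ± 0.623 scaled FPKM (SD, n = 2), a difference of 1.59 on the log2 scale. Dcpp3, the closest relative of Dcpp2 by coding sequence, was listed at 0 in mice 27, 28 and 29 and at 0.176 FPKM in mouse 26, about 5.41 fragments on the estimated depth. Its genotypes overlap. Dcpp1 exceeded Dcpp2 14.9-fold in mouse 26 and 19.1-fold in mouse 29, both in FPKM.

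Sbp held the code in mice 27 and 28 and was at 152 FPKM in mouse 26 and 5.13 in mouse 29. Sbpl held the code in the same mice and was at 70.9 FPKM in mouse 26 and 2.42 in mouse 29. In both genes the homozygotes differed from each other more than in any Dcpp gene with a value above 0 in both. Sbp took place 429 in order of level among the genes of mouse 26 and place 7970 in mouse 29. The ratio of Sbp to Sbpl was 2.15 in mouse 26 and 2.12 in mouse 29. Their wild-type level is unknown. The code also stands in the seminal vesicle genes Svs2, Svs4 and Svs5, in the transglutaminase gene Tgm4 and in 9530053A07Rik. Tgm4 holds it in mouse 29 alone and is at 4015 to 5764 FPKM elsewhere. The authors' deposited table gives log2 folds of -10.31 for Sbp (q-value 0.0027) and -11.41 for Sbpl (q-value 5.9e-04), and both arise when the code is averaged as though it were an FPKM level.

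**Figure D1:**
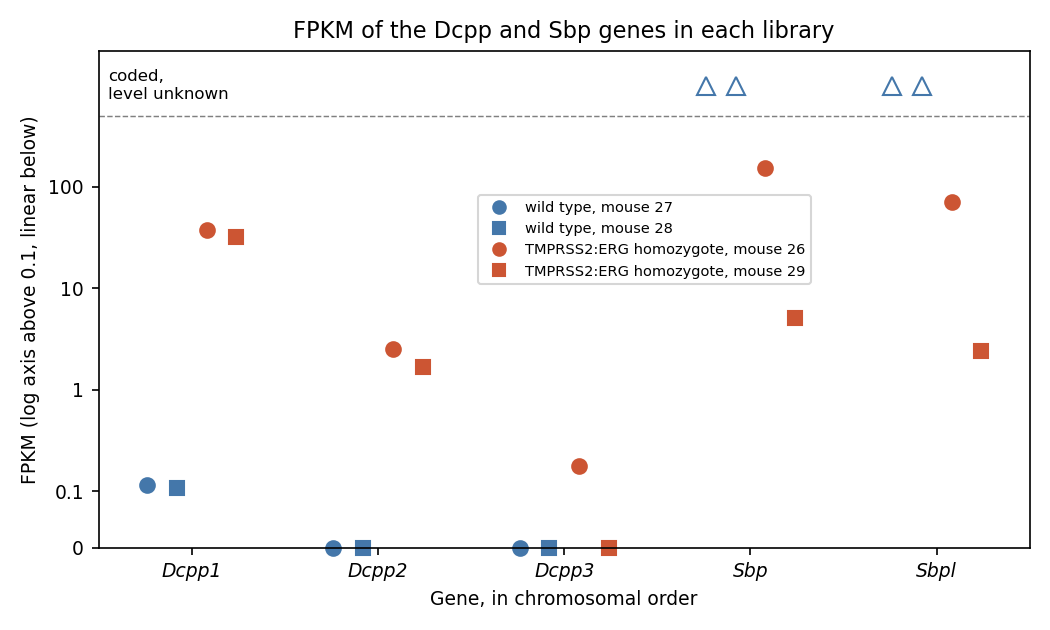
FPKM of each gene (x axis, chromosomal order) in each library (y axis, logarithmic above 0.1 FPKM and linear below), with 1 point per animal and open triangles for coded values of unknown level. Dcpp1 lies at 37.5 and 31.8 FPKM in homozygotes against 0.117 and 0.108 in wild types, while Sbp and Sbpl are coded in both wild types and spread from 152 to 5.13 and from 70.9 to 2.42 FPKM in homozygotes.

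The passage of the filter on low values (a mean of at least 1 scaled FPKM over all libraries and no missing value) accounts for which of the 5 genes entered the fit over all genes. Dcpp1 and Dcpp2 passed, both only through the homozygotes, Dcpp2 with a mean of 1.02. Dcpp3 was too low, and Sbp and Sbpl had missing values. In that fit 7.65% of the 11762 tested genes passed a limma adjusted p of 0.05, 51.1% had genotypes that do not overlap, and 25.3% had both homozygotes above both wild types, as Dcpp1 and Dcpp2 did. Nothing is read from these shares for genes chosen on this contrast.

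Between the homozygotes, Sbp and Sbpl had the largest excess in mouse 26 on the scale used here. On the log2(scaled FPKM + 1) scale mouse 26 exceeded mouse 29 by 4.68 in Sbp and by 4.42 in Sbpl, the highest and next highest values of 11631 genes with a homozygote mean of at least 1. The scaled ratios were 30.7 and 30.2. The median absolute difference between these mice was 0.106, and no other gene exceeded 4 in this direction. In the other direction 1 gene differed by more than 4, Gm9846, at 227 FPKM in mouse 29 and listed at 0 in mouse 26 (-7.77). Gm9846 was also uneven between the wild types, at 824 FPKM in mouse 28 and listed at 0 in mouse 27. After Sbp and Sbpl, the genes with the most excess in mouse 26 were Tff3, a mucosal trefoil peptide gene (3.47, listed at 0 in mouse 29), Spink3, a secreted trypsin inhibitor (3.34), and Amd1, for an enzyme of polyamine synthesis (2.91, listed at 0 in mice 27, 28 and 29). Spink3 was at 35611, 31542, 98.2 and 9.08 FPKM in mice 27, 28, 26 and 29, high in both wild types and, like Sbp and Sbpl, higher in mouse 26 than in mouse 29. Dcpp1 and Dcpp2 differed by only 0.27 and 0.42 between mice 26 and 29. With a pseudocount of 0.1, chosen after the data were seen for this comparison, Sbp and Sbpl took places 3 and 4. A comparison of 2 animals has no replicates and no test.

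**Figure D2:**
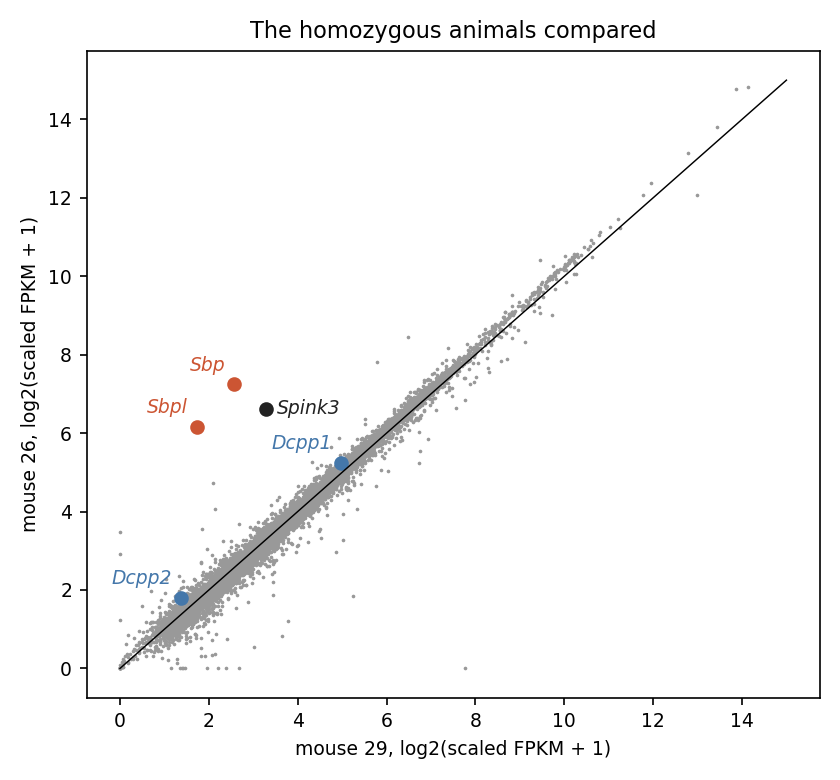
Level of each tested gene, with Sbp and Sbpl added, in mouse 26 (y axis) against mouse 29 (x axis), both as log2(scaled FPKM + 1), with the line of equal levels. Sbp and Sbpl lie 4.68 and 4.42 above the line, Spink3 3.34 above it, and Dcpp1 and Dcpp2 close to it at 0.27 and 0.42.

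Genes around the cluster were read next, as all 44 rows that start within 500 kb of it. Of these, 26 were tested and 1 passed, Prss27, which rose, a share of 3.85% against 7.65% of all tested genes. Prss27, for a membrane-anchored serine protease also called marapsin, was at 0.410 FPKM in mouse 27, 0.889 in mouse 28, 3.43 in mouse 26 and 2.97 in mouse 29, so its genotypes do not overlap. Its wild-type mean was 0.654 scaled FPKM, so it passed the filter on low values only through the homozygotes. At that wild-type level only a rise could be tested. Its log2 difference was 1.33 (SE 0.169, limma adjusted p = 0.0108), and it was called with each library left out (adjusted p from 0.00101 to 0.0360). The call was lost without a filter on low values (0.155), and at a minimum mean of 5 the gene was not tested. The median log2 difference of the 26 was -0.02, against -0.003 over all tested genes, with 12 above 0 and 14 below. Without mouse 27 the number called was 6 (3 higher and 3 lower), and without mouse 28 it was 3. Calls over the whole table rose as well in these fits, to 17.2% without mouse 27 and 13.9% without mouse 28. They fell to 3.01% without mouse 26 and 3.36% without mouse 29, where Prss27 stayed the 1 neighbour called.

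The genes next to the cluster were nearly undetected in all libraries. Prss21, the serine protease gene just before Dcpp1, was at 0.0192 FPKM in mouse 28 and listed at 0 in the others. Prss30, just after Sbpl, was at 0.0143 FPKM in mouse 27, 0 in mouse 28, 0.0559 in mouse 26 and 0.0387 in mouse 29. The nearest tested gene, Prss32, a further serine protease gene, was at 1.81, 1.96, 1.31 and 0.531 FPKM in mice 27, 28, 26 and 29 and did not pass (-0.66, limma adjusted p = 0.155). Its q-value in the authors' deposited table is 0.0364. Among the abundant neighbours Tceb2, an elongin subunit gene, was at 138 to 159 FPKM and Atp6v0c, a proton pump subunit gene, at up to 33.3 FPKM, and neither passed the test (adjusted p = 0.895 and 0.503).

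**Figure D3:**
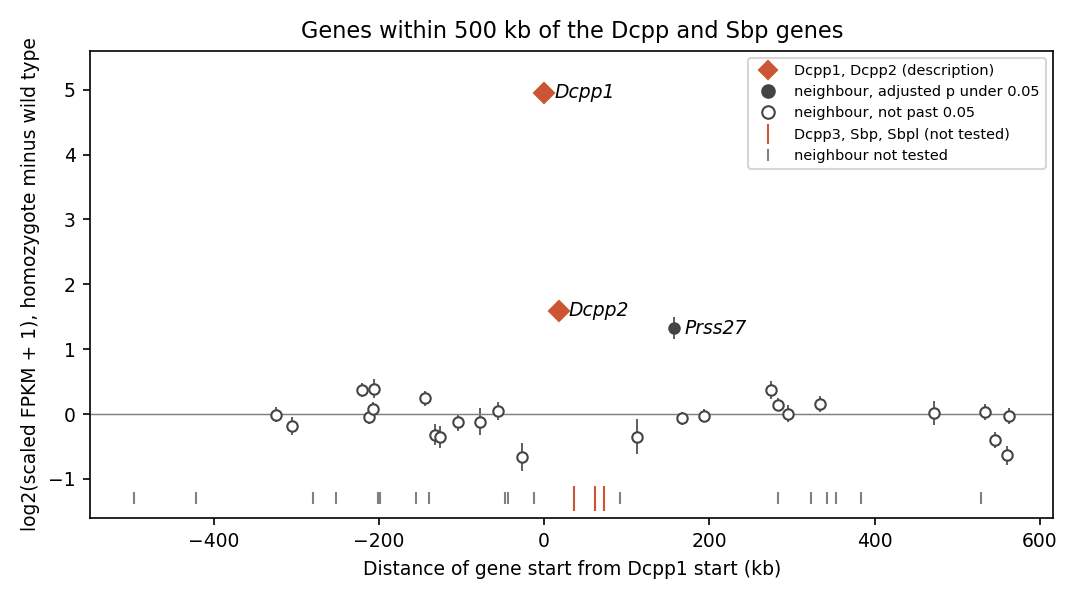
Log2 difference of homozygote minus wild type (y axis, log2(scaled FPKM + 1)) against the distance of each gene's start from that of Dcpp1 (x axis, kb). Circles are tested neighbours with their SE, filled where the adjusted p was under 0.05, diamonds are Dcpp1 and Dcpp2, and ticks are genes not tested. Dcpp1 stands at 4.96 and Dcpp2 at 1.59, while the tested neighbours other than Prss27 at 1.33 lie between -0.66 and 0.39.

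The genes whose profile over the 4 libraries was nearest to the mean profile of Dcpp1, Dcpp2 and Dcpp3 (Euclidean distance of centred log2 values) were 9930021D14Rik (0.0593), Rtl1 (0.114), Casp4 (0.144), Maged2 (0.159) and Steap4 (0.182). These distances describe likeness over 4 libraries only and carry no test. The genes found differed between genotypes by 2.14 to 2.34 on the log2 scale, against 4.96, 1.59 and 0.12 for Dcpp1, Dcpp2 and Dcpp3. The mean profile is thus that of no single Dcpp gene, and the distance favours genes with an intermediate difference. The nearest, 9930021D14Rik, also lies on chromosome 17, 519 kb after Sbpl and just outside the window. It was listed at 0 in both wild types and reached 3.98 FPKM in mouse 26 and 3.27 in mouse 29. Like Prss27, it passed the filter on low values only through the homozygotes. Rtl1, an imprinted gene of chromosome 12, was at 0, 0.00367, 3.86 and 3.47 FPKM in mice 27, 28, 26 and 29. With the window widened to 1000 kb on each side, an alternative added after the data were seen, 4 of 55 tested genes passed, all 4 higher: Prss27, 9930021D14Rik, Npw and Noxo1. That share, 7.27%, is near the 7.65% of all tested genes that passed.

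Other secretions of the prostate were read beside Sbp and Sbpl. The list used, the luminal markers and the lists below were chosen with earlier results of these data known. Their shares of called genes are descriptions. In the list of prostate lobe secretory genes 4 of 10 tested genes fell and none rose, against 3.00% of all tested genes that fell. The median of the 10 was -0.14, with 5 above 0 and 5 below. Spink3 fell by 10.12 (SE 1.02, limma adjusted p = 0.00475). Wfdc3, a whey acidic protein family gene, fell by 4.72 (SE 0.163, limma adjusted p = 1.51e-04). Its homozygote mean was 0.388 scaled FPKM, so it passed the filter on low values only through the wild types. At that homozygote level only a fall could be tested, and its size depends on the pseudocount (-6.19 with 0.1). Azgp1, a zinc-binding glycoprotein gene, fell by 3.26 (SE 0.138, adjusted p = 3.15e-04). 9530002B09Rik fell by 2.77 (SE 0.409, adjusted p = 0.0171). The call of 9530002B09Rik was lost without mouse 29 (0.128), and that of Spink3 with a robust trend (0.0668). In the authors' deposited table Spink3 has a q-value of 1. Pbsn, the probasin gene, was at 11182, 9756, 14559 and 11650 FPKM in mice 27, 28, 26 and 29 and did not pass (0.24, adjusted p = 0.846), nor did Msmb, for beta-microseminoprotein (2.19, adjusted p = 0.0626). Msmb did pass upward with unscaled FPKM (0.0346), quantile normalization, a minimum mean of 5, no trend and a robust trend. Summed over the 10 genes of this list with a value in every library, scaled levels were 80452 and 71480 in mice 27 and 28, 74069 in mouse 26 and 45407 in mouse 29. These sums mix opposite changes and leave out Tgm4 and 9530053A07Rik, which hold the code. Spink3 gave 38646, 30639, 97.1 and 8.70 of them in mice 27, 28, 26 and 29. Defb50 gave 16715, 20006, 29183 and 17977, and Msmb 4240, 4729, 28100 and 14924, in the same order.

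Seminal vesicle transcripts moved in the same direction between genotypes as Spink3, and their part in the results for Sbp and Sbpl was not tested. In that list 6 of 9 tested genes fell and none rose (median -7.07), against 3.00% of all tested genes that fell, among them Svs1, Svs3b and Svs3a (-8.16, -7.16 and -7.22). Svs1 was at 3153 FPKM in mouse 27, 243 in mouse 28, 3.87 in mouse 26 and 1.09 in mouse 29. Svs3b was at 1442, 80.6, 1.49 and 1.51 FPKM in the same order. The wild types thus differed widely from each other, and the difference was -6.25 for Svs1 and -5.03 for Svs3b without mouse 27 and -10.08 and -9.31 without mouse 28. Their calls were lost with a robust trend (adjusted p from 0.164 to 0.217), under which 0 of the 9 passed by limma and 5 had an unadjusted p under 0.05. With unscaled FPKM, without mouse 26 and without mouse 29 only 3 passed. The summed scaled level of the 9 genes was 42713 in mouse 27, 11082 in mouse 28, 4353 in mouse 26 and 8185 in mouse 29. In homozygotes this sum is almost all Pate4, which did not pass (4318 in mouse 26 and 8148 in mouse 29, limma adjusted p = 0.325). The sum leaves out Svs2, Svs4 and Svs5, which hold the code. Svs5 was at 6387 FPKM in mouse 26 and 12211 in mouse 29. On the log2 scale mouse 26 exceeded mouse 29 by 1.24 in Svs1, 0.098 in Spinkl and 0.014 in Svs3b. The other listed genes with a value in both mice were higher in mouse 29.

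Dcpp genes are best known from salivary glands, and a list of salivary and lacrimal secretory genes was read beside them. Of 17 genes 16 were in the table, 11 of them under 1 FPKM in every library, and Bpifa2, Prb1, Prh1 and Prpmp5, all defining salivary secretions, were listed at 0 in all 4. Of 5 tested, Aqp5, a water channel gene of secretory epithelia, rose by 2.15 (SE 0.225, limma adjusted p = 0.00566) and none fell, against 4.65% of all tested genes that rose. Aqp5 was at 17.5 FPKM in mouse 27, 27.9 in mouse 28, 124 in mouse 26 and 92.6 in mouse 29, and it was called with each library left out. The number called in this list was 2 higher without mouse 27 and without mouse 29, and 1 higher and 1 lower without mouse 28. By q-value, the authors' deposited table has 2 higher and 2 lower of 8, against 14.2% of all genes with a q-value. Beside Aqp5 these were Dmbt1 (log2 fold 2.43), Amy1 (-1.58) and Muc19 (-1.84) in the authors' deposited table. Amy1 was at 23.3, 3.46, 4.11 and 3.72 FPKM in mice 27, 28, 26 and 29, so mouse 27 alone was high and the genotypes overlap. Muc19 was at 0.0702, 0.287, 0.0162 and 0.0304 FPKM in the same order, too low to be tested here. Dmbt1, at 0.385, 0.557, 4.18 and 1.58 FPKM, did not pass (limma adjusted p = 0.0881). Zg16, the gene outside the cluster with the same fold, was at 0.0671 FPKM in mouse 26 and listed at 0 in the others.

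Polyamine genes were read because spermine is the ligand of Sbp. Of 17 listed symbols 16 were in the table and 15 tested, with 1 rise and 1 fall (13.3%, against 7.65% of all tested genes) and a median of -0.08. Arg1, an arginase gene, rose by 1.22 (SE 0.199, limma adjusted p = 0.0230) and Amd2, for S-adenosylmethionine decarboxylase, fell by 0.74 (SE 0.118, adjusted p = 0.0223). Both calls were lost without mouse 26 (0.0796 and 0.185), and that of Amd2 without mouse 29 (0.222). In the authors' deposited table Amd2 has a q-value of 1. The same table gives Amd1 a log2 fold of -0.65 (q-value 0.0254), although Amd1 is listed above 0 in mouse 26 alone. Amd1 and Amd2 are entered at overlapping positions, chr10:40287458-40302188 and chr10:40287465-40302186, so how reads were divided between them is uncertain. Odc1, for ornithine decarboxylase, the first step of the pathway, was at 91.6, 84.6, 67.9 and 55.6 FPKM in mice 27, 28, 26 and 29 and did not pass (-0.59, adjusted p = 0.109). Sms, the spermine synthase gene, was at 14.7, 11.3, 10.6 and 10.6 FPKM (-0.33, adjusted p = 0.376). The number called by limma was 4 without mouse 28 and 0 without mouse 26, where 3 had an unadjusted p under 0.05.

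**Figure D4:**
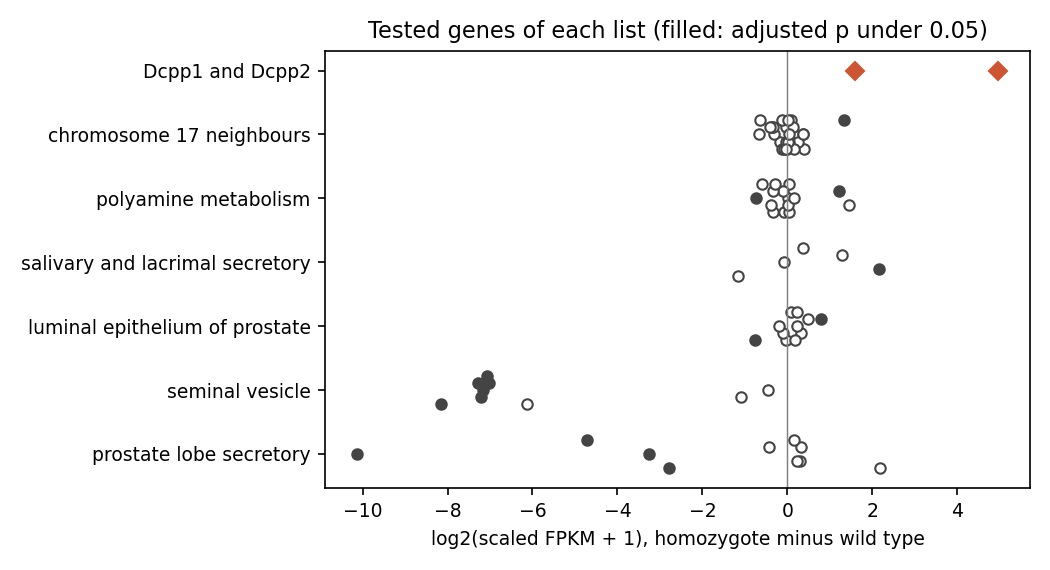
Log2 difference of homozygote minus wild type (x axis, log2(scaled FPKM + 1)) for each tested gene of each list (rows), with filled circles for an adjusted p under 0.05. Dcpp1 and Dcpp2 at 4.96 and 1.59 are shown as diamonds without a test, and the filled points of the prostate lobe and seminal vesicle lists all lie below 0.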

How the data were processed

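RNA sequencing libraries of 2 wild-type and 2 homozygous mice were grouped by their titles, which give each its own mouse. The authors deposited 1 FPKM value per gene and library, a unit read from the values since the headers give none. TopHat 1.3, Cufflinks 1.3 and mm10 appear, without roles, in the submitters' processing notes. The authors' deposited log2 fold, p-value and q-value come from a tool that no source used here names. Values holding the code were treated as missing. FPKM were divided by median-of-ratios factors, and log2(scaled FPKM + 1) of genes with a mean of at least 1 was modelled by limma 3.58.1 under R 4.3.3 (trend, two-sided, Benjamini-Hochberg adjustment, threshold 0.05, residual degrees of freedom 2, prior 3.62), a script tested on simulated data. P-values weigh the genotype difference against the spread between these animals, moderated toward that of the other genes. Promoters are RefSeq's (all 5 genes matched) and transcripts GENCODE M21's, aligned with Biopython 1.88. The genes and lists were chosen with earlier results of these data known. Named genes are the 5 members, called neighbours and the rows beside the cluster, the 5 nearest profiles, the 5 largest differences of mouse 26 over mouse 29 and the 3 largest moderated statistics per list. Others were picked with their values in view. Alternatives changed the scaling, pseudocount, filter, trend, libraries, treatment of the code and source of the call.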

Additional observations from a re-analysis of the deposited data

How the results depend on the processing

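Dcpp1 and Dcpp2 kept their direction under each alternative run, which was fixed by wild types near 0 FPKM and both homozygotes above. The log2 differences of Dcpp1 and Dcpp2 were 7.29 and 4.39 with a pseudocount of 0.1, where Dcpp3 was at 0.73 against 0.12. They ranged from 4.82 to 5.08 (Dcpp1), 1.38 to 1.79 (Dcpp2) and 0 to 0.23 (Dcpp3) with each library left out. The authors' deposited log2 fold is 8.22 for Dcpp1. With the code kept as a level, the mean log2 difference was -11.74 for Sbp and -12.71 for Sbpl, against -10.31 and -11.41 in the authors' deposited table. The genes called numbered 900 over the whole table, 126 without a filter, 2034 by the authors' deposited q-value (14.2% of 14374), and 355 to 2028 with each library left out. Without scaling 500 rose and 185 fell, against 547 and 353 with it. Called neighbours (limma) numbered 0 without a filter and at a minimum mean of 5, where 12 of 44 and 4 of 14 had an unadjusted p under 0.05, 3 by the authors' deposited q-value, 4 in the wider window, and 1 to 6 with each library left out. Without a filter 0 of the polyamine, seminal vesicle, luminal and salivary genes passed by limma, and 5, 5, 3 and 3 had an unadjusted p under 0.05. With a library left out, the spread of the lone animal's group was borrowed from the other genotype. No paired analysis was possible because the genotypes share no mouse number. Depth is an estimate, so levels near 0 carry no interval.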
